A study of Mus musculus and Acomys cahirinus with 84 samples.

Results

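The genes described here are 10 cell-cycle cyclins and cyclin-dependent kinases: Ccna2, Ccnb1, Ccnd1, Ccnd2, Ccnd3, Ccne1, Ccne2, Cdk1, Cdk4 and Cdk6. They were chosen by symbol, and all 10 were found in both gene tables, among 56980 mouse gene identifiers and 19818 gene names of the spiny mouse Acomys cahirinus. Messenger RNA was sequenced from primary skin fibroblasts, the matrix-making cells of the dermis, of C56BL6 mice (spelled as in the labels), wild mice and A. cahirinus, a rodent known for scar-free skin repair. Cultures were left untreated or received 10 or 20 Gy of gamma radiation and were collected at 24 h or at 12 d, and a further group at 12 d was untreated and passaged. Each of the 21 groups had 4 libraries, 84 in all. Nothing in the labels used here gives a strain beyond these names, an age or a sex of the animals, or how often the passaged cells were passaged.

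Cyclins are regulatory subunits that come and go through the division cycle, and the kinases they bind are inactive without them. D-type cyclins with Cdk4 or Cdk6 act in G1, where they phosphorylate the retinoblastoma protein and so release E2F transcription factors; E-type cyclins act at entry into S phase, cyclin A2 in S and G2 phase, and cyclin B1 with Cdk1 drives mitosis. After DNA breaks p53 and the inhibitor p21 hold these kinases back, and the DREAM complex then represses many genes of the later phases. Fibroblasts that leave the cycle for good after irradiation are known to keep, or raise, D-type cyclins while cyclin A2, cyclin B1 and Cdk1 are lost.

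The library names give the same animal code to libraries of the same replicate number within a population, so replicate numbers paired the libraries, and each comparison was fitted both ways: unpaired, and with a term for the number (the replicate block). The 24 h and 12 d libraries are separate batches in the labels and were not tested against each other. Libraries held 26653561 to 39819857 counts in C56BL6, 17419339 to 35984517 in wild mice and 25552727 to 52857478 in A. cahirinus. Levels are given as CPM, a gene's counts scaled to a common library total. Summed fibroblast markers were at least 11070 CPM in every library. Adjusted p-values are from edgeR's quasi-likelihood test with Benjamini-Hochberg adjustment over all genes tested, with 0.05 as the threshold, and ± after a log2 fold change is 1 standard error (SE).

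Some libraries went against the rest or their label. The 12 d libraries labelled wild replicate 1 shared their on and off genes with wild replicate 4: 0 genes were off in all libraries of one and at 10 or more counts in all libraries of the other. Against the 24 h libraries of their own number, 36 genes differed in this way, and against those of number 4, 0 genes did. Other pairs of wild numbers at 12 d differed by 19 to 47 genes. Whether both numbers came from 1 animal was not tested. If so, the unpaired wild fits at 12 d counted that animal more than once. Wild results at 12 d are therefore also given without number 1, from blocked fits that leave out the wild libraries of that number where a block was used. The wild 24 h 10 Gy replicate 1 library detected 17843 genes, the fewest of the wild libraries, and its summed muscle markers, led by the actin gene Acta1, were 773.9 CPM, the highest among wild libraries. The other 2 muscle markers averaged under 1 CPM in wild and in C56BL6 cells. In A. cahirinus, where no muscle marker averaged under 1 CPM, the muscle sum was 758 to 6545 CPM in every library. Keratinocyte markers, mainly the basal keratins Krt5 and Krt14, summed to 215 to 826 CPM in the C56BL6 replicate 1 libraries and to 1.11 to 3.85 CPM in replicates 2 to 4. The other keratinocyte markers Krt10, Epcam and Cdh1 were low in replicate 1 (at most 2.19, 0.154 and 0.788 CPM), much as in replicates 2 to 4. Whether these markers mean other cells, and the part of such cells in the results below, was not tested. Values without number 1 are given beside the results whose call it changes. In bulk RNA, fewer cells of a type and less RNA per cell cannot be told apart.

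Per kilobase of exon, Ccnd2, Ccnd1 and Cdk4 had the highest mean levels of the set in untreated mouse cells at 24 h, and Cdk4, Ccnd1 and Ccnd3 in A. cahirinus. In C56BL6 the order ran from Ccnd2 (131.5 ± 5.98 CPM per kb; mean ± SD, n = 4) through Ccnd1 (98.8 ± 23.6) and Cdk4 (80.0 ± 17.98) to Cdk1 (20.4 ± 5.71), Ccna2 (18.5 ± 2.4996), Ccne1 (15.2 ± 1.19), Ccnb1 (14.4 ± 1.84) and Ccnd3 (10.5 ± 0.781). Ccne2 (4.65 ± 0.820) and Cdk6 (3.72 ± 1.21) came last. Ccnd1 and Cdk4, each pair of neighbours from Cdk1 to Ccnb1, and Ccne2 and Cdk6 overlapped within 1 SD of their means. Wild cells had the same first 8 genes in the same order, with Ccnd2 (82.7 ± 28.03), Ccnd1 (73.1 ± 19.9) and Cdk4 (72.4 ± 19.2) within their spread. Within A. cahirinus the order was another one. Cdk4 led at 178.9 ± 45.1 CPM per kb, followed by Ccnd1 at 97.9 ± 27.9 and Ccnd3 at 94.9 ± 23.1, which overlapped, while Ccnd2 (47.2 ± 24.6) came after Ccnb1 (56.6 ± 8.13) and Cdk1 (54.9 ± 10.5), again within the spread. Below them came Ccna2 (31.8 ± 6.84), Ccne1 (18.6 ± 5.11), Cdk6 (14.1 ± 1.497) and Ccne2 (2.85 ± 0.236). Exon lengths come from 2 annotations that differ (8775 bp for Ccnd3 in mouse, 2558 bp in A. cahirinus), so orders are read only within a table.

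At 12 d after 20 Gy the D-type cyclins stood first in A. cahirinus, with Ccnd1 at 256.3 ± 34.4, Ccnd3 at 209.5 ± 83.8 and Ccnd2 at 104.3 ± 24.6 CPM per kb, the last within the spread of Cdk4 (84.8 ± 13.7). Ccna2 was last at 0.412 ± 0.0861 CPM per kb. In C56BL6 at the same dose Ccnd2 (149.6 ± 4.80) and Ccnd1 (121.9 ± 12.7) led, and Ccnb1 (0.921 ± 0.464), Ccna2 (0.898 ± 0.301) and Ccne2 (0.752 ± 0.178) were lowest and within their spread.

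The genes of S phase and mitosis, Ccna2, Ccnb1 and Cdk1, fell in A. cahirinus cells at 24 h and at 12 d after 20 Gy, except that Cdk1 at 24 h after 20 Gy missed the threshold in the unpaired fit (adjusted p = 0.0505) and passed with the replicate block. They were lower at 12 d after 20 Gy than in untreated passaged cells in all 3 populations. The 24 h changes of Ccna2 and Ccnb1 differed between A. cahirinus and C56BL6. In the mouse assembly GRCm39, Ccna2 (ENSMUSG00000027715) lies on chromosome 3 at 36619014 to 36626299, Ccnb1 (ENSMUSG00000041431) on chromosome 13 at 100915158 to 100923078 and Cdk1 (ENSMUSG00000019942) on chromosome 10 at 69170976 to 69188768, all on the minus strand. Because Cdk1 and Ccnb1 moved together in these data, the 250 bases before their RefSeq start sites are shown, in build GRCm38.p6 and 5′ to 3′ on the gene's strand. Capitals mark 3 motifs found in genes of late cell-cycle phases, searched on both strands: CCAAT (reading ATTGG on the other strand), TTTGAA (the CHR, a DREAM and MuvB element) and, for E2F, the 3 spellings TTTCGCGC, TTTGGCGC and TTTCCCGC.
Cdk1, chr10:69352913-69353162, minus strand: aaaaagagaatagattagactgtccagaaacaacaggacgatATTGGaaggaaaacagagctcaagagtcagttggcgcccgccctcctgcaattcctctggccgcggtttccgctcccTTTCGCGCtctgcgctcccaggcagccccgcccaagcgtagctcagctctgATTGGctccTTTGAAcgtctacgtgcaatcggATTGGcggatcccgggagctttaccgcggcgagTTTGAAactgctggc
Ccnb1, chr13:100786487-100786736, minus strand: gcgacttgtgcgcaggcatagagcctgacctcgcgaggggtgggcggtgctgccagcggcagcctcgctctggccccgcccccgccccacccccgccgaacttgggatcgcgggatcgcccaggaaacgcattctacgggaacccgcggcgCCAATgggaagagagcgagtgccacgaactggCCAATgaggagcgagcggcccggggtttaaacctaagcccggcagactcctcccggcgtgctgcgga

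The Cdk1 stretch holds 2 TTTGAA runs, 71 to 66 and 15 to 10 bases before the start, 3 CCAAT boxes, all on the opposite strand, and 1 E2F spelling 131 to 124 bases before the start. The Ccnb1 stretch holds 2 CCAAT boxes, 99 to 95 and 67 to 63 bases before the start, and none of the other spellings searched. Other spellings of these motifs, including of the CHR, were not searched in any window. No motif overlapped another. Of 32851 windows of this length in the RefSeq table, 15.99% held TTTGAA, 33.85% held CCAAT and 1.53% held an E2F spelling. Among the other members in the table, none of the motifs was in the windows of Cdk4, Cdk6, Ccne1 and the first Ccnd3 start, and the second Ccnd3 start had 1 CCAAT box. Windows of Ccna2, Ccnd1, Ccnd2 and Ccne2 were not used here. A match describes letters only.

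Ccna2 encodes cyclin A2, the partner of Cdk2 and Cdk1 in S and G2 phase. In A. cahirinus at 24 h its level was 91.1, 80.5, 103 and 131 CPM in the 4 untreated libraries, 16.3, 11.3, 22.2 and 35.01 CPM after 10 Gy and 15.8, 12.0, 22.7 and 31.7 CPM after 20 Gy. Every irradiated library lay below every untreated one. The log2 fold change was -2.23 ± 0.31 after 10 Gy (adjusted p = 0.00826) and -2.28 ± 0.28 after 20 Gy (adjusted p = 0.00534). Either call was lost without number 1 or number 3, with values of -2.18 and -2.25 after 10 Gy (adjusted p = 0.115 and 0.153) and of -2.22 and -2.32 after 20 Gy (adjusted p = 0.0792 and 0.111). In C56BL6 at 24 h the untreated libraries held 80.5, 60.96, 84.1 and 77.2 CPM and the 20 Gy libraries 67.9, 61.8, 74.6 and 69.7 CPM, which overlapped. The change after 20 Gy was -0.17 ± 0.10 (adjusted p = 0.663) and passed the threshold with the block (-0.17 ± 0.052, adjusted p = 0.0412). After 10 Gy it was -0.34 ± 0.099 (adjusted p = 0.385; with the block -0.34, adjusted p = 0.00435). Wild cells held 49.1, 61.5, 93.3 and 85.5 CPM untreated and 45.6, 32.9, 50.3 and 37.03 CPM after 20 Gy, lower in all 4 pairs. That change was -0.82 ± 0.22 (adjusted p = 0.623) and passed with the block (-0.81 ± 0.14, adjusted p = 0.00421). After 10 Gy the wild value was -1.10 ± 0.24 (adjusted p = 0.756), and -1.34 (adjusted p = 0.108) without number 1, whose 10 Gy library stood apart.

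At 12 d Ccna2 in A. cahirinus was 20.5, 22.7, 29.97 and 28.1 CPM in untreated libraries and 0.947, 1.26, 1.56 and 1.48 CPM after 20 Gy. The groups were far apart, and the spread within the 20 Gy group was 0.275 CPM (SD). The log2 fold change was -4.27 ± 0.20 (adjusted p = 4.58e-05), called in every fit that left out a number. At 10 Gy the libraries held 16.5, 8.19, 30.7 and 21.2 CPM and overlapped with untreated ones (-0.42 ± 0.32, adjusted p = 0.49). Between the doses the level differed by -3.86 ± 0.40 (adjusted p = 0.0372), a call lost without number 1, 3 or 4 (-3.87 to -3.61, adjusted p = 0.193 to 0.452) and kept with the block (adjusted p = 7.96e-05). C56BL6 cells at 12 d held 25.9, 10.7, 5.04 and 6.29 CPM untreated, the highest in the replicate 1 library, whose keratinocyte sum was 826 CPM (276 CPM in the 20 Gy replicate 1), and 5.05, 2.32, 4.28 and 3.01 CPM after 20 Gy. The fold change was -1.83 ± 0.54 (adjusted p = 0.0385). Without number 1 it was -1.30 (adjusted p = 0.0202), and without number 2, 3 or 4 the call was lost (-2.18 to -1.72, adjusted p = 0.0762 to 0.156). Wild values were 14.4, 4.14, 2.22 and 26.8 CPM untreated and 11.9, 3.80, 1.66 and 13.3 CPM after 20 Gy, which overlapped although each pair was lower. The fold change was -0.74 ± 0.85 (adjusted p = 0.778), with the block -0.60 (adjusted p = 0.0581) and with the block but without number 1 -0.68 (adjusted p = 0.155).

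**Figure D1:**
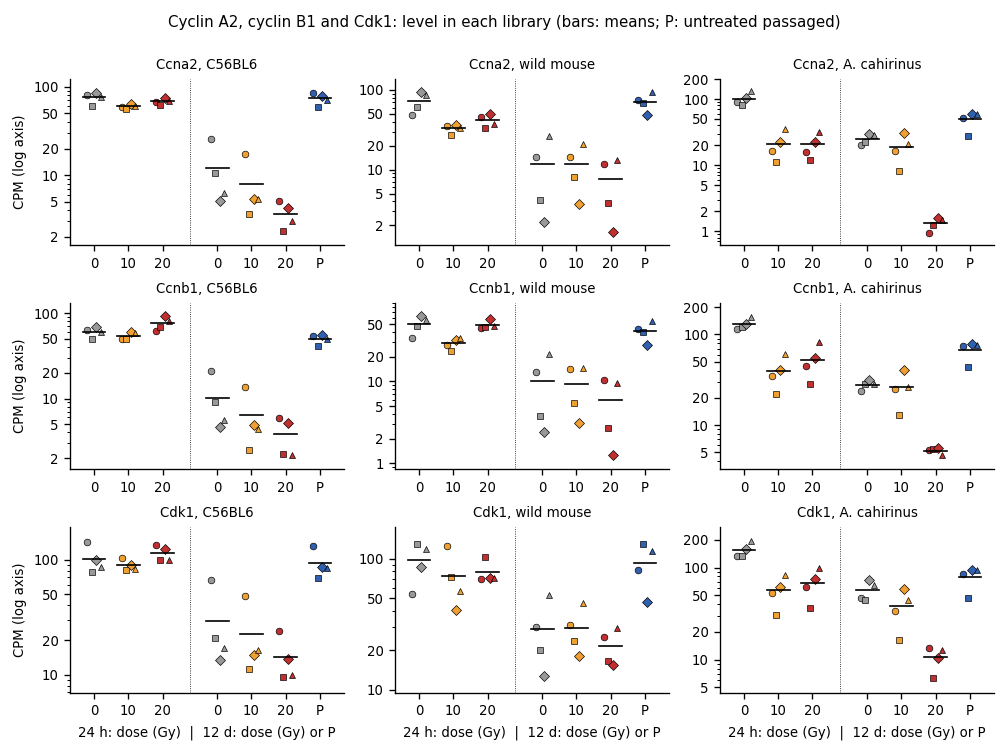
Levels of Ccna2, Ccnb1 and Cdk1 in CPM (log axis) in each library by dose at 24 h and 12 d and in untreated passaged cells (P), 1 column of panels per population; circles, squares, diamonds and triangles are replicate numbers 1 to 4 and bars are means. In A. cahirinus the 20 Gy libraries at 12 d lie below all others, at 0.947 to 1.56 CPM for Ccna2, and in C56BL6 the circle is highest for Ccna2 in untreated cells at 12 d (25.9 CPM).

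Ccnb1, the cyclin of mitotic entry, had 114, 120.2, 130.03 and 156 CPM in untreated A. cahirinus libraries at 24 h and 44.8, 28.4, 55.6 and 82.0 CPM after 20 Gy. The groups did not overlap. The fold change was -1.28 ± 0.27 (adjusted p = 0.0371) after 20 Gy and -1.70 ± 0.25 (adjusted p = 0.0105) after 10 Gy. Both calls were lost without number 1 (-1.27, adjusted p = 0.186, and -1.71, adjusted p = 0.125) or number 3 (-1.32, adjusted p = 0.288, and -1.71, adjusted p = 0.158). C56BL6 libraries at 24 h held 63.1, 50.03, 68.6 and 60.7 CPM untreated and 61.7, 68.4, 91.3 and 81.3 CPM after 20 Gy, which was higher in 3 of 4 pairs. Here the change was 0.29 ± 0.14 (adjusted p = 0.552), and with the block Ccnb1 rose (0.29 ± 0.070, adjusted p = 0.012). At 12 d after 20 Gy the A. cahirinus libraries held 5.27, 5.44, 5.58 and 4.71 CPM against 24.0, 28.4, 31.6 and 28.3 CPM untreated (-2.42 ± 0.12, adjusted p = 4.9e-05). Ccnb1 was also lower after 20 Gy than after 10 Gy (-2.32 ± 0.30, adjusted p = 0.0372), a call lost without number 1, 3 or 4 (-2.34 to -2.04, adjusted p = 0.23 to 0.452). In C56BL6 the 12 d change was -1.49 ± 0.56 (adjusted p = 0.0832) and passed with the block (-1.39, adjusted p = 0.0197); without number 1 and without the block it was -1.11 (adjusted p = 0.0651). In wild cells it was -0.87 ± 0.82 (adjusted p = 0.714), with the block -0.85 (adjusted p = 0.0249) and with the block but without number 1 -1.03 (adjusted p = 0.0641).

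Cdk1, the kinase of mitosis, followed the same course in A. cahirinus. At 24 h it measured 132, 134, 159 and 195 CPM untreated, 52.3, 30.2, 61.3 and 83.6 CPM after 10 Gy and 60.9, 36.6, 75.4 and 100.1 CPM after 20 Gy, with no overlap of either dose with untreated. Cdk1 fell after 10 Gy (-1.42 ± 0.26, adjusted p = 0.0217; without number 1 or 3, -1.46 and -1.45, adjusted p = 0.18 and 0.216) and was at -1.16 ± 0.26 after 20 Gy (adjusted p = 0.0505; with RLE scaling -1.17, adjusted p = 0.0477; with the block -1.22, adjusted p = 8.74e-05; DESeq2 and the fit without number 2 called it too). At 12 d the untreated libraries held 46.7, 44.9, 72.4 and 64.4 CPM and the 20 Gy libraries 13.3, 6.25, 10.5 and 12.6 CPM. This was a fall of -2.43 ± 0.25 (adjusted p = 0.000481) that held in each fit without a number. C56BL6 libraries at 12 d held 65.9, 20.6, 13.4 and 17.1 CPM untreated and 24.0, 9.57, 13.6 and 10.0 CPM after 20 Gy; the keratin-bearing replicate 1 was highest in both groups. The change was -1.16 ± 0.55 (adjusted p = 0.152), with the block -0.96 (adjusted p = 0.0148) and without number 1 -0.73 (adjusted p = 0.0233). In wild cells Cdk1 was at -0.32 ± 0.26 at 24 h and -0.52 ± 0.40 at 12 d after 20 Gy (adjusted p = 1.0 and 0.638), and with the block at -0.28 and -0.40 (adjusted p = 0.216 and 0.213). With the block but without number 1 the 12 d value was -0.42 (adjusted p = 0.386).

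The 24 h change differed between A. cahirinus and C56BL6 by -2.12 ± 0.31 for Ccna2 (interaction, adjusted p = 0.00292) and by -1.59 ± 0.32 for Ccnb1 (adjusted p = 0.0159). Ccna2 was not called without number 3 (-2.18, adjusted p = 0.0903), nor Ccnb1 without number 1, 2 or 3 (-1.67 to -1.38, adjusted p = 0.0537 to 0.223). For Cdk1 the difference was -1.32 ± 0.34 (adjusted p = 0.0614; with the block -1.40, adjusted p = 1.02e-05). Against wild mice the differences at 24 h were -1.47 ± 0.38 for Ccna2, -1.26 ± 0.34 for Ccnb1 and -0.85 ± 0.39 for Cdk1 (adjusted p = 0.263, 0.299 and 0.957), and all 3 passed with the block (adjusted p = 0.000497, 0.00101 and 0.0137). At 12 d the Ccna2 change differed between A. cahirinus and C56BL6 by -2.44 ± 0.60 (adjusted p = 0.0122; not called without number 3 or 4, -2.09 and -2.32, adjusted p = 0.104 and 0.0819). Ccnb1 differed by -0.92 ± 0.59 (adjusted p = 0.296) and Cdk1 by -1.28 ± 0.63 (adjusted p = 0.167; with the block -1.48, adjusted p = 0.00554). Without number 1 of both populations, the keratin-bearing C56BL6 libraries and those of A. cahirinus number 1, the Cdk1 difference was -1.91 and was called (adjusted p = 0.00619). Against wild mice at 12 d the difference was -3.52 ± 0.95 for Ccna2 (adjusted p = 0.0578), -1.53 ± 0.87 for Ccnb1 (adjusted p = 0.359) and -1.90 ± 0.50 for Cdk1 (adjusted p = 0.0532), and each passed with the block (adjusted p = 4.15e-05, 0.00109 and 0.00147). With the block but without wild number 1 they were -3.57, -1.37 and -2.02 (adjusted p = 0.000369, 0.00363 and 0.00634). Interactions share the A. cahirinus libraries, so they are given side by side only.

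Ccnd1 encodes cyclin D1, the D-type cyclin best known as a sensor of growth factors, on chromosome 7 at 144483668 to 144493662 (ENSMUSG00000070348, minus strand, GRCm39). It was higher after irradiation at 12 d in all 3 populations. C56BL6 libraries held 176, 248, 91.2 and 92.7 CPM untreated, 427, 481, 468 and 477 CPM after 10 Gy and 499, 635, 557 and 606 CPM after 20 Gy. Untreated libraries of numbers 1 and 2 were higher than those of numbers 3 and 4, and no irradiated library reached down to them. Ccnd1 rose by 1.48 ± 0.32 after 10 Gy (adjusted p = 0.0149) and 1.80 ± 0.33 after 20 Gy (adjusted p = 0.00645). The 20 Gy call was kept in all fits without a number, and the 10 Gy call was lost without number 3 or 4 (1.30 and 1.29, adjusted p = 0.0979 and 0.0758). In A. cahirinus the 12 d libraries held 312, 622, 214 and 222 CPM untreated and 973, 1161, 894 and 874 CPM after 20 Gy, without overlap. This rise was 1.51 ± 0.35 (adjusted p = 0.0129), not called without number 1, 3 or 4 (1.40 to 1.46, adjusted p = 0.0611 to 0.105) and called with the block (1.64, adjusted p = 0.000597). Wild libraries held 92.4, 36.9, 136 and 197 CPM untreated and 431, 347, 639 and 325 CPM after 20 Gy, again without overlap. The change was 1.87 ± 0.46 (adjusted p = 0.135), with the block 2.0 ± 0.35 (adjusted p = 0.0147) and with the block but without number 1 1.95 (adjusted p = 0.0837).

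At 24 h Ccnd1 was higher in every 20 Gy than in every untreated library of C56BL6 (649 to 889.9 against 365 to 565 CPM) and of wild mice (432 to 894 against 244 to 427 CPM). The changes were 0.62 ± 0.18 and 0.90 ± 0.24 (adjusted p = 0.289 and 0.623), and both passed with the block (0.64, adjusted p = 4.69e-05, and 0.90, adjusted p = 0.000758). In A. cahirinus the 20 Gy libraries (364 to 557 CPM) overlapped with untreated ones (259 to 490.3 CPM) but were higher in all 4 pairs (0.33 ± 0.24, adjusted p = 0.524; with the block 0.36, adjusted p = 0.00194). After 10 Gy the wild value was 0.62 ± 0.58 (adjusted p = 0.941), and 0.93 (adjusted p = 0.379) without number 1, whose library held 70.1 CPM against 563 to 851 CPM in the others.

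Ccnd2, a second D-type cyclin (ENSMUSG00000000184, chromosome 6 at 127102125 to 127129156, minus strand), was also higher at 12 d. It rose in C56BL6 after 20 Gy from 852, 1107, 643 and 583 CPM to 1429.6, 1431, 1430.4 and 1340.1 CPM. The untreated values spread widely, while the irradiated ones lay close together. The fold change was 0.71 ± 0.20 (adjusted p = 0.032), lost without number 3 or 4 (0.61 in each, adjusted p = 0.173 and 0.107). In A. cahirinus the 12 d values were 378, 571, 255 and 396 CPM untreated and 762, 1143, 743 and 731 CPM after 20 Gy (1.08 ± 0.27, adjusted p = 0.0175), and replicate 2 was highest in both groups. That call was lost without number 1, 3 or 4 (1.0 to 1.15, adjusted p = 0.0691 to 0.113). Wild libraries held 409, 223, 423 and 489 CPM untreated and 806, 701, 859 and 880.2 CPM after 20 Gy, with no overlap. The wild change was 0.99 ± 0.20 (adjusted p = 0.1), with the block 1.01 (adjusted p = 0.00769) and without number 1 in that fit 1.05 (adjusted p = 0.0556). At 24 h after 20 Gy the changes were 0.29 ± 0.075 in C56BL6, 0.43 ± 0.30 in wild and 0.30 ± 0.40 in A. cahirinus (adjusted p = 0.236, 1.0 and 0.768), and with the block Ccnd2 rose in each (adjusted p = 0.000655, 0.00678 and 0.00377).

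Ccnd3, the third D-type cyclin (ENSMUSG00000034165, chromosome 17 at 47815976 to 47910616, plus strand), went the other way in C56BL6 cells. Its 12 d levels there were 144, 146, 133 and 135 CPM untreated and 118, 114, 130.2 and 127 CPM after 20 Gy, without overlap but close. Ccnd3 fell by 0.31 ± 0.068 on the log2 scale (adjusted p = 0.0137), a call lost without number 2, 3 or 4 (-0.37 to -0.27, adjusted p = 0.0601 to 0.0976). In A. cahirinus Ccnd3 was 395, 247, 436 and 403 CPM untreated and 598, 221, 624 and 701 CPM after 20 Gy; replicate 2 alone did not increase and was lowest in each group. The change was 0.52 ± 0.33 (adjusted p = 0.253; with the block 0.44, adjusted p = 0.0433). Wild cells gave -0.019 ± 0.23 (adjusted p = 0.985, interval of 2 SE -0.47 to 0.43), and -0.11 without number 1 with or without the block. The difference between A. cahirinus and C56BL6 in this change was 0.83 ± 0.34 (adjusted p = 0.103; with the block 0.75, adjusted p = 0.00798).

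**Figure D2:**
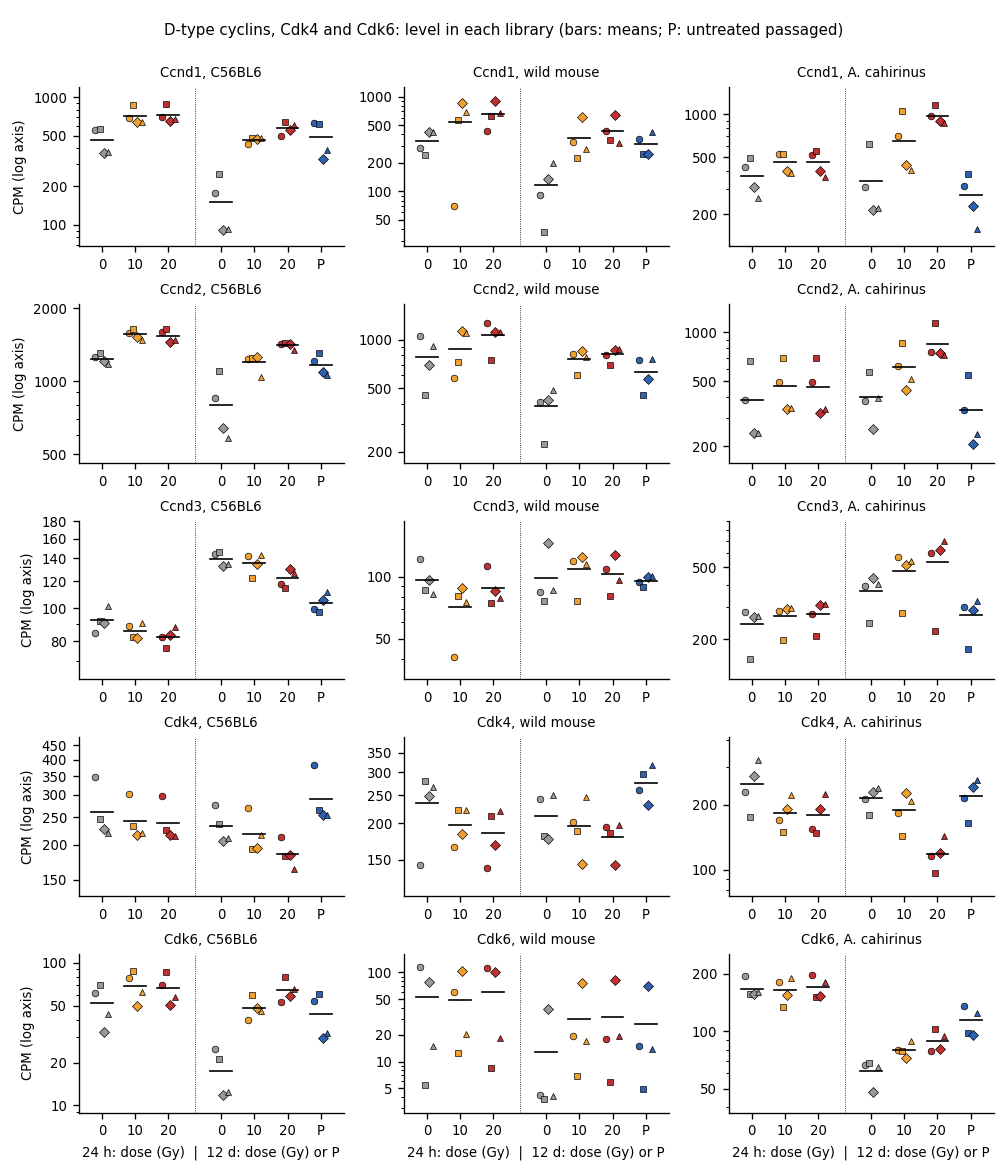
Levels of the D-type cyclins Ccnd1, Ccnd2 and Ccnd3 and of their kinases Cdk4 and Cdk6 in CPM (log axis) in each library, by dose at 24 h and 12 d and in untreated passaged cells (P); symbols are replicate numbers 1 to 4 (circle, square, diamond, triangle) and bars are means. Ccnd1 at 12 d is higher in every 20 Gy than in every untreated library of each population, and wild Cdk6 is split by animal, at 5.45 to 114 CPM in untreated cells at 24 h.

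After 20 Gy the partner kinases moved in opposite directions at 12 d in C56BL6 and A. cahirinus. Cdk6 (ENSMUSG00000040274, chromosome 5 at 3391485 to 3581008, plus strand), a G1 kinase that D-type cyclins activate, was 24.7, 21.2, 11.8 and 12.4 CPM in untreated C56BL6 libraries, 39.995, 60.01, 48.5 and 45.8 CPM after 10 Gy and 53.4, 79.5, 58.9 and 65.1 CPM after 20 Gy. No irradiated library overlapped with untreated ones. Cdk6 rose by 1.35 ± 0.26 after 10 Gy (adjusted p = 0.0107) and by 1.76 ± 0.27 after 20 Gy (adjusted p = 0.00339). The 10 Gy call was lost without number 2, 3 or 4 (1.20 to 1.32, adjusted p = 0.0582 to 0.0831). In A. cahirinus at 12 d the values were 66.2, 67.8, 48.1 and 64.5 CPM untreated and 78.3, 102.1, 80.5 and 94.5 CPM after 20 Gy. This smaller rise was 0.53 ± 0.15 (adjusted p = 0.0266; not called without number 1, 3 or 4, 0.50 to 0.63, adjusted p = 0.0785 to 0.107). The change was lower in A. cahirinus than in C56BL6 by 1.23 ± 0.32 on the log2 scale (interaction -1.23, adjusted p = 0.0164; not called without number 3 or 4, -1.16 and -1.10, adjusted p = 0.0818 and 0.106). At 24 h after 20 Gy A. cahirinus showed 0.057 ± 0.11 (adjusted p = 0.842, interval of 2 SE -0.15 to 0.27), and C56BL6 0.33 ± 0.25 (adjusted p = 0.759; with the block 0.35, adjusted p = 0.00168).

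Wild Cdk6 depended on the animal. Untreated libraries at 24 h held 114, 5.45, 78.2 and 14.96 CPM for numbers 1 to 4, and the 20 Gy libraries 113, 8.46, 101.8 and 18.4 CPM. Numbers 1 and 3 were high and numbers 2 and 4 low at each dose. At 12 d the untreated libraries held 4.19, 3.79, 38.9 and 4.08 CPM and the 20 Gy libraries 18.1, 5.81, 82.3 and 19.6 CPM, so number 3 alone was high and the libraries labelled number 1 lay beside number 4. Each of the 4 wild pairs was higher after 20 Gy at 12 d. The change was 1.31 ± 1.03 (adjusted p = 0.647), with the block 1.42 ± 0.30 (adjusted p = 0.0248) and with the block but without number 1 1.22 (adjusted p = 0.117).

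Cdk4 (ENSMUSG00000006728, chromosome 10 at 126899403 to 126903789, plus strand), the other G1 kinase, was 277, 236, 206 and 211 CPM in untreated C56BL6 libraries at 12 d and 213, 182, 183 and 164 CPM after 20 Gy, lower in each pair. Cdk4 fell (-0.44 ± 0.12, adjusted p = 0.0298), a call lost without number 2, 3 or 4 (-0.49 to -0.43, adjusted p = 0.0903 to 0.137). In A. cahirinus Cdk4 was 213, 179.6, 229 and 239 CPM untreated and 116, 96.001, 119 and 143 CPM after 20 Gy, with no overlap. This fall of -0.87 ± 0.13 (adjusted p = 0.00188) was called in all fits without a number. Wild Cdk4 was at -0.35 ± 0.15 (adjusted p = 0.365; with the block -0.34, adjusted p = 0.0488, and without number 1 as well -0.32, adjusted p = 0.222). The A. cahirinus change was lower than that of C56BL6 by 0.42 ± 0.17 (interaction -0.42, adjusted p = 0.0912; with the block adjusted p = 0.00461).

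Ratios within a library, which do not depend on its scaling, were compared between 20 Gy and untreated cells with a two-sided exact permutation test; 4 libraries a side can be arranged in 70 ways, and no p below 0.029 is possible. The Cdk6 to Cdk4 ratio was higher after 20 Gy at 12 d by 2.25 on the log2 scale in C56BL6 and 1.40 in A. cahirinus (exact p = 0.029 for each, adjusted p = 0.171 over 18 tests). For Ccnd1 to Ccnd2 at 12 d the differences were 1.18 in C56BL6 (exact p = 0.029, adjusted p = 0.171), 0.98 in wild and 0.53 in A. cahirinus (exact p = 0.0571, adjusted p = 0.171, for each). None of the 18 ratio tests passed an adjusted p of 0.05. With the lowest possible p at 0.029, a pass needed most of the 18 tests to reach it, so this outcome says little about the ratios. All 4 pairs of each population had a higher Cdk6 to Cdk4 ratio after 20 Gy at both times. The permutation test did not use these pairs. By an exact sign-flip test of the pairs, p was 0.125 for this ratio in each population and time, the lowest that 4 pairs allow. For Ccnd1 to Ccnd2 at 12 d the sign-flip p was 0.125 in C56BL6 and 0.25 in wild mice and in A. cahirinus.

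Of the E-type cyclins, which with Cdk2 start DNA replication, Ccne2 fell at 24 h in A. cahirinus, and Ccne1 did not pass in the unpaired edgeR fit but passed with the block and by DESeq2 after 20 Gy. Ccne2 (ENSMUSG00000028212, chromosome 4 at 11191351 to 11204779, plus strand) was 8.97, 8.91, 9.87 and 10.6 CPM in untreated A. cahirinus libraries, 5.49, 4.39, 5.09 and 6.10 CPM after 10 Gy and 5.86, 4.08, 3.93 and 4.50 CPM after 20 Gy. Irradiated and untreated libraries did not overlap. The changes were -0.83 ± 0.11 after 10 Gy (adjusted p = 0.00771; without number 1 or 3 adjusted p = 0.109 and 0.158) and -1.04 ± 0.15 after 20 Gy (adjusted p = 0.00832; without number 1, 3 or 4 -1.20 to -0.96, adjusted p = 0.0568 to 0.143). In C56BL6 at 24 h Ccne2 was 13.9, 14.4, 20.2 and 16.5 CPM untreated and 12.3, 17.2, 17.2 and 15.8 CPM after 20 Gy (-0.084 ± 0.16, adjusted p = 0.929, interval of 2 SE -0.40 to 0.24). The change differed between these populations by -0.96 ± 0.22 (adjusted p = 0.0314; not called without number 2, 3 or 4, -0.96 to -0.85, adjusted p = 0.215 to 0.359). Wild Ccne2 was 7.91, 7.08, 10.0 and 12.0 CPM untreated and 7.14, 5.38, 4.78 and 3.51 CPM after 20 Gy (-0.84 ± 0.28, adjusted p = 0.723; with the block -0.86, adjusted p = 0.0298).

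Ccne1 (ENSMUSG00000002068, chromosome 7 at 37797409 to 37806959, minus strand) changed at 24 h after 20 Gy by -0.70 ± 0.23 in A. cahirinus, -0.46 ± 0.19 in wild and -0.075 ± 0.078 in C56BL6 (adjusted p = 0.163, 0.787 and 0.838). With the block it fell in A. cahirinus (adjusted p = 3.6e-05) and wild cells (-0.49, adjusted p = 0.019). At 12 d the A. cahirinus libraries held 21.2, 16.5, 20.8 and 23.3 CPM untreated and 11.7, 11.2, 12.3 and 12.3 CPM after 20 Gy, without overlap. That fall was -0.79 ± 0.11 (adjusted p = 0.00155), kept in all fits without a number. C56BL6 Ccne1 showed -0.066 ± 0.24 (adjusted p = 0.866, interval of 2 SE -0.55 to 0.42), and wild Ccne1 0.33 ± 0.24 (adjusted p = 0.601; without number 1 0.22, adjusted p = 0.952). The difference between A. cahirinus and wild mice was -1.11 ± 0.26 (adjusted p = 0.0374; not called without number 1, 3 or 4, -1.14 to -0.97, adjusted p = 0.131 to 0.362), and with the block but without wild number 1 -1.01 (adjusted p = 0.0154). Against C56BL6 it was -0.72 ± 0.27 (adjusted p = 0.0805; with the block -0.74, adjusted p = 0.0117; without number 1 -0.81, adjusted p = 0.0346). Ccne2 at 12 d after 20 Gy was at -0.41 ± 0.36 in C56BL6, -0.33 ± 0.49 in wild and -0.34 ± 0.17 in A. cahirinus, none past the threshold with or without the block. Without number 1 the wild value was -0.59 (adjusted p = 0.939), and with the block as well -0.63 (adjusted p = 0.373).

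**Figure D3:**
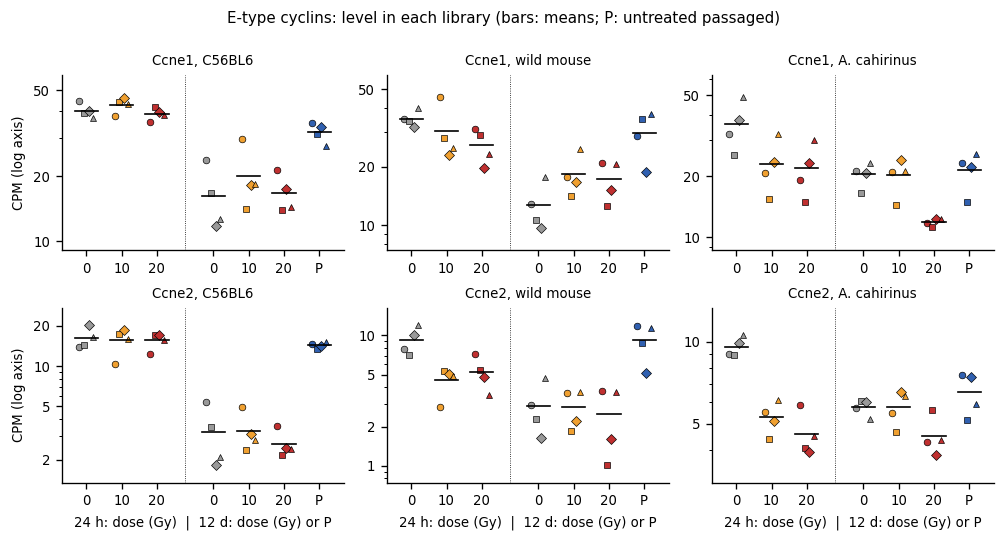
Levels of the E-type cyclins Ccne1 and Ccne2 in CPM (log axis) in each library by dose at 24 h and 12 d and in untreated passaged cells (P); symbols are replicate numbers 1 to 4 (circle, square, diamond, triangle) and bars are means. C56BL6 Ccne2 is at 13.4 to 15.2 CPM in passaged cells against 1.82 to 5.39 CPM in untreated cells at 12 d, and A. cahirinus Ccne2 at 5.16 to 7.55 against 5.18 to 6.05 CPM.

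Counted over the members, dose comparisons in C56BL6 were as follows. Here and below, a percentage beside members called is edgeR's share of all genes, with all numbers and the same block setting. It does not hold for unadjusted or DESeq2 counts, and no share is given for fits without a number. At 24 h after 20 Gy edgeR called 0 of 10 members (3 at an unadjusted p under 0.05, 2 by DESeq2) and 0.0895% of all genes; with the block 7 members and 17.6% of genes. After 10 Gy it called 0 (3 unadjusted, 1 by DESeq2) and 0.007% of genes, and with the block 4 members and 11.5%. At 12 d after 20 Gy 6 members (3 up, 3 down) were called beside 26.5% of genes, and 8 with the block beside 47.5%; leaving out number 2, 3 or 4 gave 3, 2 and 2, and leaving out number 1 gave 7. At 12 d after 10 Gy 2 were called beside 20.9%, or 3 beside 38.8% with the block, and none without number 3 or 4. Between 20 and 10 Gy the counts were 0 (3 unadjusted, 0 by DESeq2) beside 0% of genes, and with the block 2, Ccnd1 and Cdk6, beside 0.297%. Of all genes at 24 h, 1426 of 14526 had an unadjusted p under 0.05 after 20 Gy and 1116 of 14280 after 10 Gy. DESeq2 called 268 and 149 genes there. Between the doses at 12 d the unadjusted count was 301 of 15463 genes.

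In wild cells at 24 h edgeR called 0 members after 20 Gy (4 unadjusted, 0 by DESeq2) beside 0% of genes, and 6 with the block beside 12.5%. After 10 Gy it called 0 (3 unadjusted, 2 by DESeq2) beside 0%, and 0 with the block beside 0%. At 12 d 0 were called after 20 Gy (2 unadjusted, 2 by DESeq2) beside 0.0694%, and 5 with the block beside 15.4%. After 10 Gy 0 were called (2 unadjusted, 2 by DESeq2) beside 0.264%, and 3 with the block, Ccnd1, Ccnd2 and Cdk6, beside 12.7%. With number 1 left out of the blocked fits at 12 d, none of these was called in either dose comparison. Between 20 and 10 Gy 0 were called (0 unadjusted, 0 by DESeq2) beside 0%, and with the block 2, Ccna2 and Ccnb1, beside 0.257%, or 1, Ccna2 (-0.88, adjusted p = 0.0397), without number 1. Of all genes at 24 h, 856 of 14473 had an unadjusted p under 0.05 after 20 Gy and 603 of 14412 after 10 Gy. DESeq2 called 85 and 92 genes there. At 12 d the unadjusted counts were 1984 of 14399 and 1763 of 14391 genes, and DESeq2 called 663 and 600.

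A. cahirinus had 3 members called at 24 h after 20 Gy beside 3.59% of genes, all lower, and 9 with the block beside 24.1%; without number 1 or 3 the first count was 0. After 10 Gy 4 were called, all lower, beside 3.73%, and 9 with the block beside 27.6%. At 12 d after 20 Gy 8 were called, 3 up and 5 down, beside 31.8%, and 9 with the block beside 49.2%. After 10 Gy 0 were called (1 unadjusted, 0 by DESeq2) beside 2.87%, and 5 with the block, with Ccnd1, Ccnd2, Ccnd3 and Cdk6 up and Cdk1 down, beside 27.5%. Of all 13215 genes tested there, 2880 had an unadjusted p under 0.05 and DESeq2 called 1530. Between 20 and 10 Gy 2 were called beside 0.457%, and 7 with the block beside 17.9%. The groups did not overlap for 8 of 10 members between 20 Gy and untreated cells at 12 d (32.6% of all genes), 4 in C56BL6 (31.3%) and 2 in wild cells (8.67%).

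**Figure D4:**
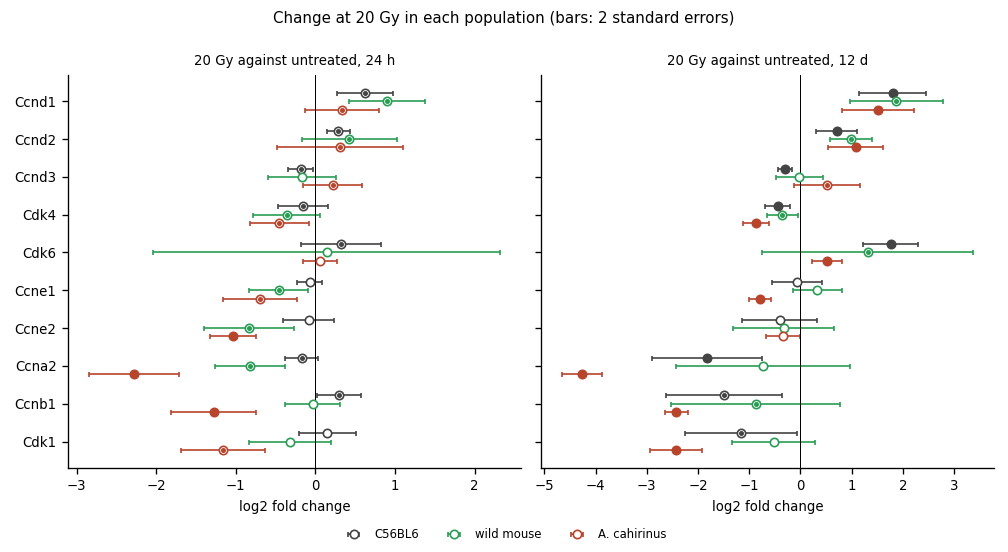
Log2 fold change of each member after 20 Gy against untreated cells at 24 h and 12 d in the 3 populations, with bars of 2 SE; filled markers passed an adjusted p of 0.05 without the replicate block and open markers with a dot passed with it but not without it. At 12 d Ccnd1 lies at 1.51 to 1.87 in all 3 populations, while Ccna2 lies at -4.27 in A. cahirinus and -0.74 in wild mice.

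The interactions for 20 Gy gave 3 members between A. cahirinus and C56BL6 at 24 h beside 2.09% of shared genes, or 8 with the block beside 16.8%. At 12 d they gave 2, Ccna2 and Cdk6, beside 18.8%, or 6 with the block beside 38%. Between A. cahirinus and wild mice 0 were called at 24 h (3 unadjusted, 1 by DESeq2) beside 0%, or 5 with the block beside 7.25%, and 1, Ccne1, at 12 d beside 3.35%, or 5 with the block beside 23.3% (also 5 without wild number 1). Between wild and C56BL6 mice edgeR called 0 at 24 h (2 unadjusted, 0 by DESeq2) beside 0% of genes and 0 with the block beside 0.647%. At 12 d it called 0 (0 unadjusted, 0 by DESeq2) beside 0% and 0 with the block beside 0.101%. Between A. cahirinus and wild mice at 24 h, 701 of 13584 genes had an unadjusted p under 0.05 and DESeq2 called 88. Between wild and C56BL6 mice the unadjusted counts were 253 of 15612 genes at 24 h and 353 of 15914 at 12 d.

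Untreated passaged cells were a second reference at 12 d, and in each mouse population 9 of 10 members had higher levels in all 4 passaged libraries than in their untreated pairs that were not passaged, Ccnd3 being the other one. The share of all genes higher in all 4 pairs was not computed. Without regard to pairs, the groups did not overlap for 8 members in C56BL6 (46.2% of all genes) and 5 in wild cells (18.5%). In C56BL6 Ccna2 was 85.2, 58.9, 79.5 and 71.5 CPM in passaged libraries, above all untreated ones (5.04 to 25.9 CPM). Ccna2 rose by 2.61 ± 0.50 (adjusted p = 0.00356), Ccnb1 by 2.31 ± 0.46 (adjusted p = 0.00431), Cdk1 by 1.66 ± 0.51 (adjusted p = 0.026) and Ccnd1 by 1.69 ± 0.38 (adjusted p = 0.00706). Without number 1 these were 3.27, 2.96, 2.26 and 1.65. Ccne2 was 14.6, 13.4, 14.2 and 15.2 CPM against 5.39, 3.54, 1.82 and 2.10 CPM, a rise of 2.15 ± 0.33 (adjusted p = 0.00143). Ccne1 (0.97 ± 0.22, adjusted p = 0.0072) and Cdk6 (1.33 ± 0.33, adjusted p = 0.0108) rose as well, and Ccnd3 fell (-0.44 ± 0.068, adjusted p = 0.00145). Cdk1 was not called without number 2, 3 or 4 (1.46 to 1.62, adjusted p = 0.095 to 0.107), nor Cdk6 without number 2 (1.22, adjusted p = 0.0522). Ccnd2 was at 0.55 (adjusted p = 0.0527) and passed with the block (0.59, adjusted p = 0.00704), by DESeq2 and without number 2. Cdk4 was at 0.31 (adjusted p = 0.135) and passed with the block (0.30, adjusted p = 0.0122) and without number 1 (0.26, adjusted p = 0.0207).

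In wild cells Ccne1 (1.14 ± 0.25, adjusted p = 0.0295) and Ccne2 (1.59 ± 0.38, adjusted p = 0.0379) rose with passage. Both were lost without number 1, 2 or 4 (Ccne1 1.06 to 1.20, adjusted p = 0.105 to 0.203; Ccne2 1.45 to 1.78, adjusted p = 0.11 to 0.238) and held with the block without number 1 (adjusted p = 0.0202 and 0.0228). Ccna2 was 74.4, 68.6, 49.1 and 93.2 CPM in passaged wild cells, above every untreated library (2.53 ± 0.70, adjusted p = 0.0564; with the block 3.0, adjusted p = 0.00776; with the block but without number 1 3.29, adjusted p = 0.0318). In passaged A. cahirinus cells Ccna2 was 51.3, 28.1, 58.9 and 58.7 CPM, and it rose by 0.93 ± 0.22 (adjusted p = 0.0174; not called without number 1, 3 or 4, 0.82 to 0.92, adjusted p = 0.0781 to 0.121). Ccnb1 rose by 1.25 ± 0.17 (adjusted p = 0.0024) and Cdk6 by 0.85 ± 0.15 (adjusted p = 0.00613; without number 1 0.79, adjusted p = 0.0548). Ccne2 was 7.55, 5.16, 7.41 and 5.91 CPM against 5.70, 6.05, 5.99 and 5.18 CPM in untreated libraries (0.16 ± 0.15, adjusted p = 0.458, interval of 2 SE -0.13 to 0.45). Ccnd1 was at -0.36 ± 0.42 (adjusted p = 0.555).

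The effect of passage differed between A. cahirinus and C56BL6 by -2.004 ± 0.36 for Ccne2 (adjusted p = 0.00155), called in each fit without a number. It also differed by -2.06 ± 0.60 for Ccnd1 (adjusted p = 0.0204; without number 1, 3 or 4 -2.14 to -1.92, adjusted p = 0.0634 to 0.0805), by -1.69 ± 0.55 for Ccna2 (adjusted p = 0.035; without number 2, 3 or 4 -1.56 to -1.41, adjusted p = 0.133 to 0.168) and by -0.94 ± 0.28 for Ccne1 (adjusted p = 0.0236; without number 2, 3 or 4 -0.89 to -0.79, adjusted p = 0.079 to 0.163). Against wild mice the Ccne2 difference was -1.43 ± 0.42 (adjusted p = 0.0707) and the Ccnd1 difference -1.79 ± 0.63 (adjusted p = 0.127), and both passed with the block (adjusted p = 0.00203 and 0.0043), also without wild number 1 (-1.36 and -1.76, adjusted p = 0.00815 and 0.0153). Without number 1 the unpaired passage differences from C56BL6 were also called for Ccnb1 (-1.81, adjusted p = 0.00405) and Cdk1 (-1.92, adjusted p = 0.0033), which were at -1.07 and -1.21 with all 4 numbers (adjusted p = 0.125 and 0.134).

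Irradiated cells at 12 d had less Ccna2, Ccnb1, Cdk1 and Cdk4 than passaged cells in each of the 3 populations. In C56BL6, 20 Gy libraries were lower than passaged ones by -4.46 ± 0.25 for Ccna2 (adjusted p = 1.95e-05), -3.83 ± 0.36 for Ccnb1, -2.84 ± 0.33 for Cdk1, -2.58 ± 0.16 for Ccne2, -1.06 ± 0.14 for Ccne1 and -0.77 ± 0.14 for Cdk4 (adjusted p at most 0.00317). None of these 6 calls was lost by leaving out a number. Ccnd1 overlapped, with 499 to 635 CPM after 20 Gy and 330.0 to 633 CPM in passaged cells (0.089 ± 0.22, adjusted p = 0.774, interval of 2 SE -0.35 to 0.53). Ccnd2 (0.13 ± 0.10), Ccnd3 (0.11 ± 0.075) and Cdk6 (0.41 ± 0.25) did not pass either (adjusted p = 0.32, 0.276 and 0.22). In A. cahirinus Ccna2 (-5.21 ± 0.28, adjusted p = 2.1e-05), Ccnb1 (-3.69 ± 0.20, adjusted p = 2.1e-05), Cdk1 (-2.90 ± 0.29, adjusted p = 0.000236), Cdk4 (-0.89 ± 0.15, adjusted p = 0.0025) and Ccne1 (-0.85 ± 0.15, adjusted p = 0.0029) were lower. The D-type cyclins were all higher there. Ccnd1 was 973, 1161, 894 and 874 CPM after 20 Gy against 315, 385, 228 and 158 CPM in passaged cells (1.85 ± 0.28, adjusted p = 0.0014), Ccnd2 differed by 1.35 ± 0.33 (adjusted p = 0.0123) and Ccnd3 by 0.97 ± 0.33 (adjusted p = 0.0423). The last 2 were not called without number 1, 3 or 4 (Ccnd2 1.25 to 1.39, adjusted p = 0.0543 to 0.0822; Ccnd3 0.91 to 0.95, adjusted p = 0.136 to 0.162). Cdk6 (mean 88.9 against 114 CPM in passaged cells) and Ccne2 (4.52 against 6.51 CPM) were lower on average after 20 Gy in A. cahirinus, with overlap. Both were at an unadjusted p under 0.05 and not called in the unpaired fit. Without number 2 all 10 members were called.

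Wild cells after 20 Gy were lower than passaged ones for Ccna2 (-3.28 ± 0.60, adjusted p = 0.0156), Ccnb1 (-2.85 ± 0.62, adjusted p = 0.0265), Cdk1 (-2.14 ± 0.33, adjusted p = 0.00989), Ccne2 (-1.93 ± 0.46, adjusted p = 0.0348) and Cdk4 (-0.66 ± 0.12, adjusted p = 0.0156). Leaving out number 1, 2 or 4 ended all 5 calls (adjusted p = 0.0588 to 0.147), with Ccna2 then at -3.58, -3.09 and -3.51. With the block and without number 1 the 5 were called (adjusted p at most 0.00472). In a comparison added after the data were seen, the difference between 20 Gy and passaged cells was more positive in A. cahirinus than in C56BL6 by 1.76 ± 0.37 for Ccnd1 (adjusted p = 0.00402), 1.23 ± 0.36 for Ccnd2 (adjusted p = 0.0257; without number 1, 3 or 4 1.18 to 1.24, adjusted p = 0.103 to 0.125) and 2.07 ± 0.26 for Ccne2 (adjusted p = 0.000111). Against wild mice the same 3 were at 1.42 ± 0.42, 1.04 ± 0.40 and 1.42 ± 0.51 (adjusted p = 0.0561, 0.137 and 0.111), all past the threshold with the block (adjusted p = 0.00822, 0.003 and 0.0113), also without wild number 1 (1.48, 1.01 and 1.62, adjusted p = 0.0249, 0.00989 and 0.0205). Ccna2, Ccnb1 and Cdk1 were not called in the unpaired added comparison with C56BL6. Without number 1 they differed there by -0.50, 0.42 and -0.014, again not called. Against wild mice, with the block but without wild number 1, they were at -1.30, -0.12 and -0.68 (adjusted p = 0.0697, 0.882 and 0.12).

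**Figure D5:**
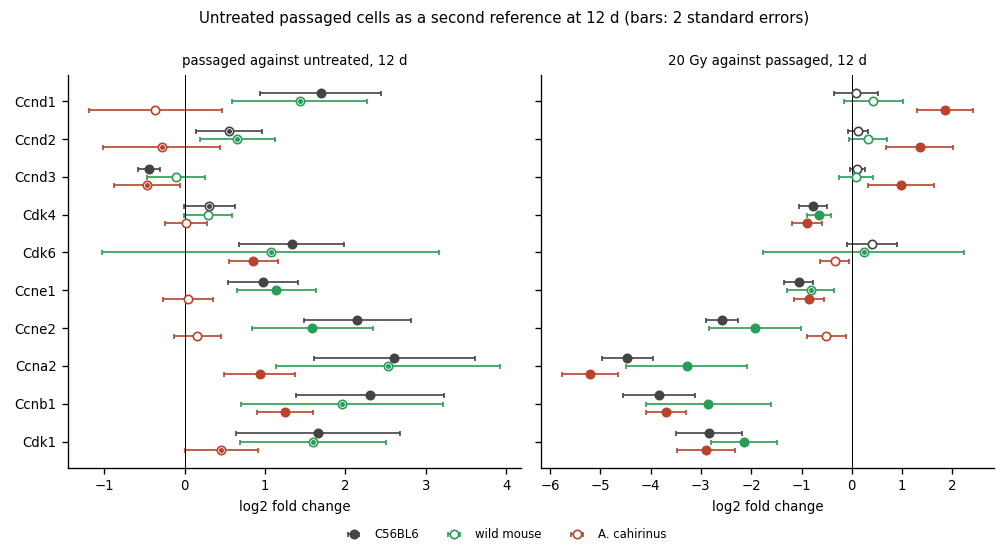
Log2 fold change of each member at 12 d in untreated passaged against untreated cells (left) and in 20 Gy against untreated passaged cells (right), with bars of 2 SE; filled markers passed an adjusted p of 0.05 without the replicate block and open markers with a dot with it but not without it. Against passaged cells Ccna2 lies at -5.21 to -3.28 in all populations, whereas Ccnd1 lies at 0.089 in C56BL6 and 1.85 in A. cahirinus.

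For passage, 8 members were called in C56BL6 beside 49.6% of genes (10 beside 60.1% with the block), 2 in wild cells beside 10.7% (8 beside 31.9%; 6 with the block but without number 1) and 3 in A. cahirinus beside 25.8% (6 beside 49.5%). Against passaged cells 20 Gy gave 6 in C56BL6 beside 41.6% (6 beside 56.1%), 5 in wild cells beside 10.5% (7 beside 38%; 6 with the block but without number 1) and 8 in A. cahirinus beside 42.5% (8 beside 56%). The passage interaction with C56BL6 called 4 beside 27.7% (9 beside 45.2%), and with wild mice edgeR called 0 (5 unadjusted, 3 by DESeq2) beside 3.46% (6 beside 23.8%; 7 with the block but without wild number 1). The added interactions called 3 beside 22% with C56BL6 (6 beside 38.2%) and 0 with wild mice (5 unadjusted, 3 by DESeq2) beside 7% (7 beside 27.7%; 5 with the block but without wild number 1). In the passage interaction with wild mice 2782 of 13514 genes had an unadjusted p under 0.05, and DESeq2 called 1264. In the added one with wild mice these counts were 3163 of 13813 and 1672.

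Untreated wild and C56BL6 cells were compared directly within the mouse table, where no block was possible. At 24 h edgeR called 0 members (2 unadjusted, 1 by DESeq2) beside 5.7% of genes. Of all 14317 genes tested, 3175 had an unadjusted p under 0.05 and DESeq2 called 1766. Ccne2 was lower in wild cells without overlap (7.08 to 12.0 against 13.9 to 20.2 CPM; -0.75 ± 0.20, adjusted p = 0.0701), as was Ccnd2 (449 to 1055 against 1177 to 1304 CPM; -0.59 ± 0.26, adjusted p = 0.224). At 12 d 0 were called (2 unadjusted, 1 by DESeq2) beside 2.93%, and Ccnd2 was at -0.95 ± 0.26 (adjusted p = 0.112), again without overlap. The counts over all 14238 genes tested were 2174 at an unadjusted p under 0.05 and 1080 by DESeq2. Without the number 1 libraries of both populations Ccnd2 was at -0.93 (adjusted p = 0.246) and no member was called.

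Other genes of the pathway came from a list of 35, chosen with earlier results of these data known: further cyclins and kinases, CDK phosphatases and inhibitory kinases, CDK inhibitors, ubiquitin-ligase components that destroy cyclins, and RB, E2F, FOXM1 and MYBL2 factors. In A. cahirinus at 24 h after 20 Gy 2 of 34 tested rose and 12 fell beside 3.59% of all genes called, with a median log2 fold change of -0.56, and with the block 2 rose and 22 fell beside 24.1%. Among them were the APC inhibitor Fbxo5 (-2.52 ± 0.31, adjusted p = 0.00534), the mitotic cyclin Ccnb2 (-1.94 ± 0.41, adjusted p = 0.0385), Ccnf (-1.88 ± 0.30, adjusted p = 0.014) and the transcription factor Foxm1 (-1.81 ± 0.19, adjusted p = 0.00338). At 12 d after 20 Gy 4 of 33 rose and 17 fell there beside 31.8% of genes (6 and 20 beside 49.2% with the block), led by the APC activator Cdc20 (-4.30 ± 0.25, adjusted p = 5.33e-05), Ccnb2 (-3.99 ± 0.27, adjusted p = 9.31e-05) and Mybl2 (-3.81 ± 0.40, adjusted p = 0.000505). C56BL6 at 12 d after 20 Gy had 3 of 34 up and 6 down, a share near the 26.5% called among all genes (5 and 14 beside 47.5% with the block). Ccnb2 was among the lower ones (-1.64 ± 0.48, adjusted p = 0.0373). Of 7 inhibitors 1 was higher and 3 were lower: Cdkn2c (p18, -1.71 ± 0.25, adjusted p = 0.00321), Cdkn1b (p27, -1.59 ± 0.12, adjusted p = 0.000617) and Cdkn2d (p19, -0.92 ± 0.14, adjusted p = 0.00353). In C56BL6 at 12 d after 10 Gy the p21 gene Cdkn1a rose (0.89 ± 0.18, adjusted p = 0.0126). Cdkn1b (-1.47), Cdkn2c (-1.31) and Cdkn2d (-0.69) fell there (adjusted p at most 0.0149). Cdkn1b, an inhibitor of cyclin E and A kinases, fell in A. cahirinus at 12 d after 10 Gy (-0.60 ± 0.085, adjusted p = 0.0336), while Cdkn1a rose (0.87 ± 0.18, adjusted p = 0.0446). In wild cells at 12 d Cdkn1b was the 1 gene of the list called by the unpaired fit, at -1.20 ± 0.11 after 20 Gy (adjusted p = 0.0298) and -1.02 ± 0.12 after 10 Gy (adjusted p = 0.0274), beside 0.0694% and 0.264% of all genes. With the block 2 of 34 rose and 5 fell after 20 Gy beside 15.4%, and 1 rose and 3 fell after 10 Gy beside 12.7%. The largest of these changes was that of Cdkn1a, which encodes p21, at 2.44 ± 0.21 after 20 Gy (adjusted p = 0.00298) and 2.35 ± 0.19 after 10 Gy (adjusted p = 0.00167). With number 1 left out of the block, Cdkn1a (2.43 and 2.34, adjusted p = 0.0284 and 0.00999) and Cdkn1b (-1.18 and -1.0, adjusted p = 0.0265 and 0.0207) were the 2 genes called after each dose, and without number 1 and without the block Cdkn1b was not called (adjusted p = 0.462 and 0.543). In passaged C56BL6 cells 17 of 34 rose and 6 fell beside 49.6% of genes (19 and 8 beside 60.1% with the block), all 7 CDK-acting enzymes and small subunits among the former, with Mybl2 at 3.12 ± 0.72 (adjusted p = 0.00795) and Foxm1 at 2.77 ± 0.37 (adjusted p = 0.000831). The inhibitor Cdkn1c was among those that fell (-3.12 ± 0.81, adjusted p = 0.0135). In passaged A. cahirinus 9 of 34 rose and 6 fell beside 25.8% (13 and 11 beside 49.5% with the block), with 1 of the 7 enzymes and subunits up.

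Levels of the mitotic members tracked each other across libraries. Over the 28 libraries of a population, after the mean of each time was subtracted, log2 CPM of Ccna2 and Ccnb1 correlated at r = 0.986 in C56BL6, 0.977 in wild mice and 0.978 in A. cahirinus. Ccna2 and Ccnd1 gave 0.0155, 0.0555 and -0.811. These are descriptions over libraries that share groups and animals. The following ranking, by the mean of r over the populations among 11774 genes, leaves out the members themselves. Most like Ccna2 were Pclaf (0.992) and Kif2c (0.991), and most like Ccnb1 were Nusap1 (0.982) and Kif2c (0.981). Cdca3 (0.958) and Plk1 (0.957) were most like Cdk1, and Cip2a (0.902) and Esco2 (0.9) most like Ccne2. Mcm3 (0.904) and Chaf1b (0.893) were most like Ccne1, and Fkbp4 (0.92) and Xrcc6 (0.917) most like Cdk4. For the D-type cyclins the values were lower, with Abcb1b (0.866) and Cd44 (0.858) for Ccnd1, Mfsd6 (0.85) and Cd44 (0.849) for Ccnd2, and Mlx (0.786) and Gorasp1 (0.765) for Ccnd3. Ccnd1 and Ccnd2 correlated with each other at r = 0.945 in C56BL6, 0.812 in wild mice and 0.901 in A. cahirinus. By the mean of these values, each was closer to the other than to any gene ranked for it. Lrrfip1 (0.823) and Plk2 (0.784) were most like Cdk6.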

How the data were processed

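Poly(A) RNA of 84 fibroblast libraries was sequenced after stranded mRNA library preparation, per the labels' protocols. The deposited values are raw counts per gene. The authors trimmed reads with Trim Galore, aligned them with HISAT2 and counted them with featureCounts, per the submitters' processing notes, which name GRCm39 for mouse. Per the file headers, featureCounts was version 2.0.3, multi-mapped reads were not counted and no strand option was set, so reads from overlapping antisense genes cannot be told apart. The 56 mouse libraries and the 28 A. cahirinus libraries are in separate tables with separate annotations, so levels were not compared across them.

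Groups came from the sample titles. CPM are counts scaled to a common library total. Each comparison was fitted across all genes in edgeR 4.0.16 (R 4.3.3) with TMM scaling, filterByExpr, the quasi-likelihood test and Benjamini-Hochberg adjustment, on the groups compared only and without a block. The block was a second fit: same-numbered libraries carry 1 animal code in the library names, and their deviations from group means correlated at 0.36 or more in each comparison. Interactions with A. cahirinus started from 18109 symbols found once in each table, and those between wild and C56BL6 mice from the whole mouse table. Alternatives were RLE scaling, no filter, DESeq2 1.42.0, the replicate block and leaving out each replicate number. The blocked fits without wild number 1, within wild mice and between populations, and the interactions of 20 Gy against passaged cells, were added after the data were seen. Whether the libraries of an animal were separate cultures is not stated, so p-values measure the spread between these libraries. The fitting script was tested on simulated counts.

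The 10 members, the 35 other pathway genes and the marker lists were chosen with earlier results of these data known. All 10 members passed the filter on low counts in every comparison. Of the pathway list, the genes named are among those past the threshold with the largest absolute change, at most 4 in a comparison. Promoter windows came from a RefSeq table (GRCm38.p6). Ratios had 0.5 added to each count.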

Additional observations from a re-analysis of the deposited data

Results flagged for a closer look

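Of 210 groups of 4 libraries, 1 per member and condition, 17 held a library far from its 3 neighbours by Dixon's test, and chance flags about 1 in 20. The C56BL6 replicate 1 libraries, which also carried the keratins Krt5 and Krt14, were high for Ccna2 at 12 d after 10 Gy (17.26 CPM), for Cdk1 at 12 d in untreated cells (65.91 CPM) and after 10 Gy (48.17 CPM), and for Cdk4 at 24 h after 20 Gy (298.5 CPM) and in passaged cells (384.4 CPM). Replicate 4 of C56BL6 was low for Ccnd2 at 12 d after 10 Gy (1043 CPM) and 20 Gy (1340 CPM). In A. cahirinus replicate 2 was low for Ccnb1 in passaged cells (43.28 CPM) and for Ccnd3 at 24 h in untreated cells (154.4 CPM) and after 10 Gy (196.7 CPM), and high for Ccnd2 at 12 d after 20 Gy (1143 CPM). Its Cdk6 was high in replicate 1 at 24 h (193.2 CPM) and low in replicate 3 at 12 d (48.11 CPM), both untreated. Wild replicate 3 was high at 12 d for Ccnd3 in untreated cells (146.2 CPM) and for Cdk6 in untreated (38.92 CPM) and passaged cells (71.08 CPM), and wild replicate 2 was high for Cdk1 at 24 h after 20 Gy (102.7 CPM).

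Effects that differed between populations, by the interaction in edgeR's quasi-likelihood test, numbered 13. Between A. cahirinus and C56BL6 these were Ccna2 (-2.12), Ccnb1 (-1.59) and Ccne2 (-0.96) for 20 Gy at 24 h, and Ccna2 (-2.44) and Cdk6 (-1.23) for 20 Gy at 12 d. For passage they were Ccna2 (-1.69), Ccnd1 (-2.06), Ccne1 (-0.94) and Ccne2 (-2.004), and for 20 Gy against passaged cells Ccnd1 (1.76), Ccnd2 (1.23) and Ccne2 (2.07). Between A. cahirinus and wild mice Ccne1 differed for 20 Gy at 12 d (-1.11).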

How the results depend on the processing

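The 231 member results followed under alternatives were those called, and uncalled ones with an absolute log2 fold change of at least 0.3. RLE scaling and no filter left nearly all of them on the same side of the threshold with the same direction (230 of 231 each), DESeq2 196 of 230 and leaving out a number 778 of 924. Pairing by number moved the most: with the replicate block 106 of 224 results newly passed and none was lost or reversed. Counts of members called with the block, against those without it, were 7 against 0 (24 h, 20 Gy), 4 against 0 (24 h, 10 Gy) and 2 against 0 (12 d, 20 against 10 Gy) in C56BL6. In wild mice they were 6 against 0 (24 h, 20 Gy), 5 against 0 (12 d, 20 Gy), 3 against 0 (12 d, 10 Gy), 2 against 0 (20 against 10 Gy) and 8 against 2 (passage). With number 1 left out of the block these became 0 (12 d, 20 Gy), 0 (10 Gy), 1 (20 against 10 Gy) and 6 (passage). In A. cahirinus they were 9 against 3 and 9 against 4 (24 h, 20 and 10 Gy), 5 against 0 (12 d, 10 Gy), 7 against 2 (20 against 10 Gy) and 6 against 3 (passage). Blocked interactions with C56BL6 gave 8 against 3 (24 h), 6 against 2 (12 d), 9 against 4 (passage) and 6 against 3 (20 Gy against passaged), and with wild mice 5 against 0, 5 against 1, 6 against 0 and 7 against 0, the last 3 becoming 5, 7 and 5 without wild number 1. DESeq2 called 2 and 1 in C56BL6 at 24 h after 20 and 10 Gy, and in wild mice 2 at 24 h after 10 Gy, 2 at 12 d after each dose and 7 for passage. In A. cahirinus it called 5 for 20 Gy at 24 h and 5 between doses, in interactions with wild mice 1, 3, 3 and 3, and between untreated wild and C56BL6 cells 1 at each time. Without a filter wild passage gave 1.

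Leaving out each number in turn gave these ranges of members called. C56BL6 had 2 to 7 (12 d, 20 Gy), 0 to 2 (12 d, 10 Gy) and 7 to 9 (passage). Wild mice had 0 to 4 (passage) and 0 to 6 (20 Gy against passaged), and 0 to 2 against C56BL6 untreated at 12 d. A. cahirinus had 0 to 4 at 24 h after 20 Gy and 0 to 4 after 10 Gy, 5 to 10 (12 d, 20 Gy), 0 to 2 (12 d, 10 Gy), 0 to 8 (20 against 10 Gy), 1 to 5 (passage) and 6 to 10 (20 Gy against passaged). Interactions with C56BL6 had 0 to 2 (24 h), 0 to 4 (12 d), 1 to 5 (passage) and 2 to 6 (20 Gy against passaged), and those with wild mice 0 to 1 (12 d) and 0 to 2 (20 Gy against passaged). Among the uncalled values followed and the ratios, 7 results changed sign, with ranges over these fits of -0.95 to 0.18 (Ccnd1, A. cahirinus against wild mice, 12 d), -0.079 to 1.03 (Ccnb1) and -0.85 to 0.015 (Cdk6, wild against C56BL6, 12 d interaction), -0.86 to 0.28 (Ccnd1) and -2.11 to 0.10 (Cdk6, untreated wild against C56BL6, 12 d). The ratios Ccnd1 to Ccnd2 in A. cahirinus at 24 h (-0.041 to 0.026) and Ccne2 to Ccne1 in C56BL6 at 24 h (-0.0649 to 0.066) were the others. Smaller uncalled values are not in this count, and they changed sign too. C56BL6 Ccne1 after 20 Gy, slightly negative with all numbers, was at 0.015 at 24 h and 0.053 at 12 d without number 1. The causes were not tested. Libraries of a group differed by 7.95 to 573 times the sampling noise of their counts, and depth was at least 17419339 counts per library.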
